A study of Mus musculus with 12 samples.

Results

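The nuclear genome encodes most subunits of the mitochondrial respiratory chain and of ATP synthase. They were taken here as every row of the deposited mouse count table whose symbol starts with Nduf, Uqcr, Cox4, Cox5, Cox6, Cox7, Cox8 or Atp5, or is Sdha, Sdhb, Sdhc, Sdhd or Cycs. Of 118 rows with such a symbol, 15 rows of pseudogenes ending in -ps were left out, which leaves 103 rows and 102 symbols out of 77175 rows in all. Atp5po stands on 2 rows, and the second, ENSMUSG00000116933, carried next to no counts. By role the rows comprised 7 core subunits of complex I, 35 accessory subunits and 8 assembly factors of complex I, 4 subunits of complex II, 8 of complex III, cytochrome c, 21 of complex IV and 19 of ATP synthase. Ndufa4 and Ndufa4l2 were counted with complex IV, where the Ndufa4 protein is known to sit.

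Complex I oxidises NADH and complex II oxidises succinate, and both pass electrons to ubiquinone. Complex III hands them to cytochrome c, complex IV passes them to oxygen, and ATP synthase uses the resulting proton gradient to make ATP. A smaller set of subunits at the heart of complexes I, III and IV and of ATP synthase is encoded in mitochondrial DNA, so that the complexes are built from 2 genomes. B16-F10 is a mouse melanoma line, and pigment cells are known for Ppargc1a, a coactivator that raises the transcription of respiratory chain genes.

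The study measured polyA RNA in 4 groups of 3 libraries each, all from NOD-SCID mice, which lack B and T cells of their own. Every mouse received OT-1 CD8+ T cells (C57BL/6J-OT-I), which recognise a peptide of ovalbumin and had been activated with anti-CD3 and anti-CD28 beads, and tumors were taken 2 days later. The T OVA libraries are the CD8 bead fraction of B16-F10-OVA tumors and the T B16-F10 libraries the same fraction of B16-F10 tumors without ovalbumin. The tumor OVA and tumor B16-F10 libraries are melanoma cells sorted by their GCaMP6s calcium sensor from the same kinds of tumor. Both lines carried GCaMP6s behind the EF1A promoter in a pLV vector marked Puro, and the OVA line also carried ovalbumin behind EF1A in a pLV vector marked Neo, so the antigen and the second vector cannot be told apart. Beads were used for T cells and sorting for tumor cells, so cell type and isolation cannot be told apart either. Nothing in the labels says that the 3 libraries of a group came from separate mice, so p-values measure how far these libraries scatter, and that scatter may be technical.

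Library totals ran from 15494683 to 33263730 counts. The labels were checked against cell type markers, given as sums of CPM, the count scaled by the library total. The 15 T cell markers summed to 1143 CPM in T OVA and 1181 CPM in T B16-F10 libraries, against 162 CPM in tumor OVA and 4.75 CPM in tumor B16-F10 libraries, where Cd3e and Trac had 0 counts. The 12 endothelial markers summed to more than the T cell markers in the T libraries, at 9720 CPM in T OVA and 10513 CPM in T B16-F10 libraries. They came to 4182 CPM in tumor OVA and 44.0 CPM in tumor B16-F10 libraries. Pericyte and fibroblast markers, whose sums are given below, also summed to more than the T cell markers in the T libraries. Melanoma markers summed to 110 CPM in T OVA, 246 CPM in T B16-F10, 9993 to 10010 CPM in tumor OVA and 23496 CPM in tumor B16-F10 libraries. Those of macrophages and monocytes came to 392 CPM in T OVA, 550 CPM in T B16-F10, 1999.5 CPM in tumor OVA and 13.6 CPM in tumor B16-F10 libraries. Stromal and immune markers were thus measured in the T and tumor OVA libraries and were far lower in tumor B16-F10 libraries. The part of these cells in the results was not tested beyond the marker scalings given. In bulk RNA, fewer cells of a type and less RNA per cell cannot be told apart.

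Most members shared an order on the scale of library totals: highest in tumor B16-F10, next in tumor OVA and lowest in the T fractions. Summed over all 103 rows, they reached 4479 ± 39.4 CPM in T OVA, 4824 ± 40.9 CPM in T B16-F10, 7135 ± 20.4 CPM in tumor OVA and 13505 ± 85.8 CPM in tumor B16-F10 libraries (SD, n = 3 each). As a share of the library this was 0.448% in T OVA, 0.482% in T B16-F10, 0.714% in tumor OVA and 1.35% in tumor B16-F10 libraries, and no library of one group lay within the range of another. Of the 91 members whose highest group averaged 5 CPM or more, 89 were highest in tumor B16-F10 libraries, and 85 (93.4%) had the order tumor B16-F10 over tumor OVA over both T groups. Among all 12522 genes of the table with that level, 5339 (42.6%) had this order. The 6 other members were Ndufa2, Ndufa8, Uqcrh, Cox7a2l, Cox4i2 and Ndufa4l2. Of the remaining rows, 10 stayed under 1 CPM in every group, and Cox6c2 and Cox8c among them had no count in any library.

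**Figure D1:**
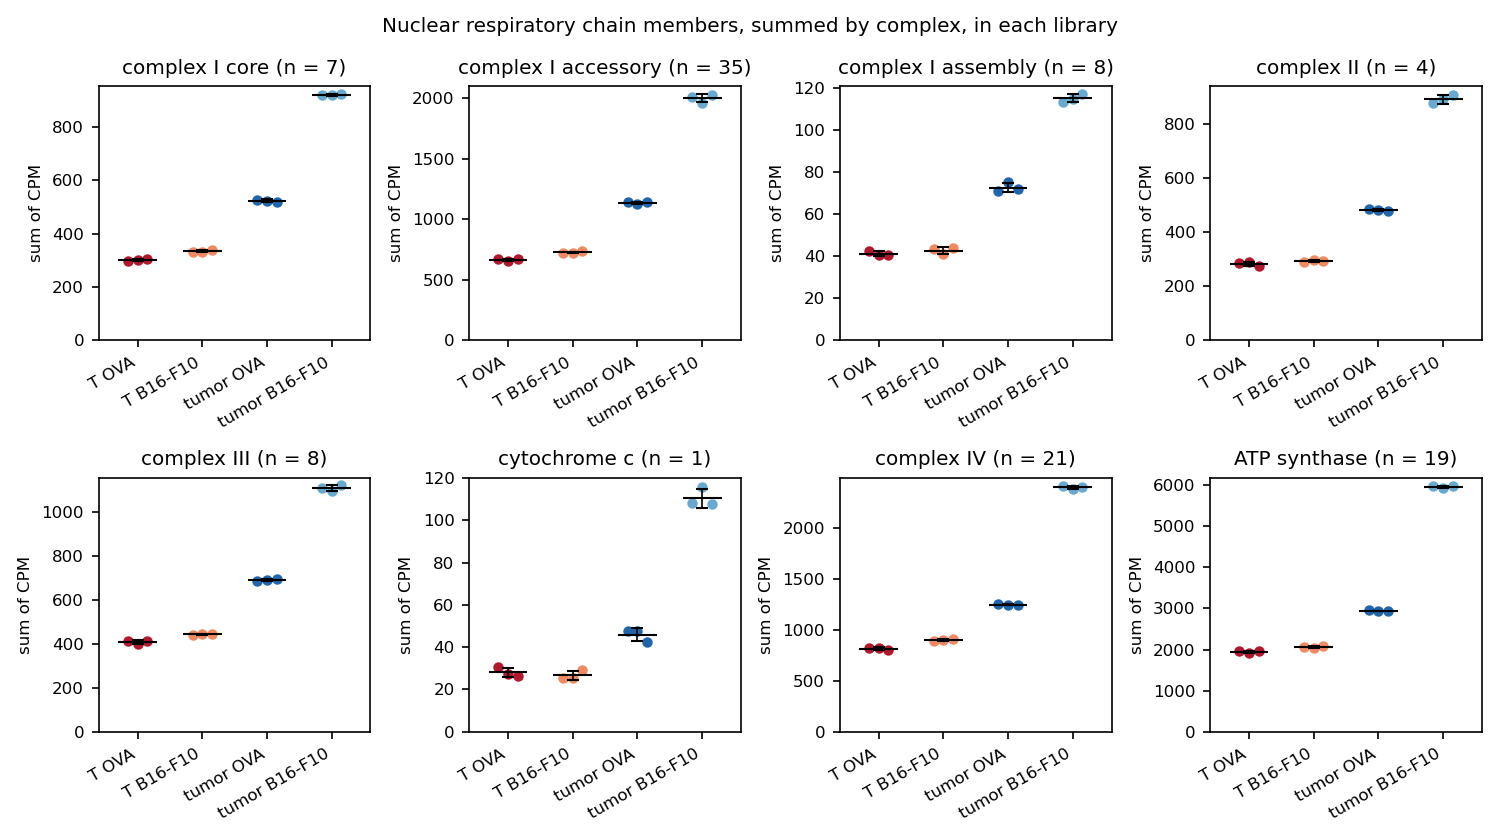
Sum of CPM over the members of each complex or role (y axis, from 0) in the 3 libraries of each group; points are libraries, the bar is the mean and the whisker 1 SD. In every panel the tumor B16-F10 libraries lie highest and the tumor OVA libraries next, on the scale of library totals; ATP synthase sums to 2940 CPM in tumor OVA and 5958 CPM in tumor B16-F10 libraries.

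The shares of ATP synthase and complex IV in member counts moved little while the total changed. ATP synthase took 43.3% of member counts in T OVA, 42.7% in T B16-F10, 41.2% in tumor OVA and 44.1% in tumor B16-F10 libraries. Complex IV took 18.2%, 18.7%, 17.5% and 17.8% in these groups, in the same order. Complex III took 9.65% in tumor OVA and 8.20% in tumor B16-F10 libraries, and cytochrome c 0.645% and 0.819%, with no overlap of libraries. Cytochrome c summed to 0.416 times as many CPM in tumor OVA as in tumor B16-F10 libraries, and the assembly factors of complex I to 0.631 times. The core and accessory subunits of complex I together summed to 0.568 times as many CPM in tumor OVA as in tumor B16-F10 libraries, complex II to 0.54 times, complex III to 0.622 times, complex IV to 0.52 times and ATP synthase to 0.493 times. Per kilobase of the principal transcript, Atp5f1b, the catalytic beta subunit of ATP synthase, was the highest member in all 4 groups, at 340 CPM per kb in T OVA, 345 in T B16-F10, 497 in tumor OVA and 1148 in tumor B16-F10 libraries. Cox4i1, a nuclear subunit of complex IV, came second in both T groups, while in tumor B16-F10 libraries Atp5mc3, a gene for the c-ring of ATP synthase, came second and Ndufa4 next.

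**Figure D2:**
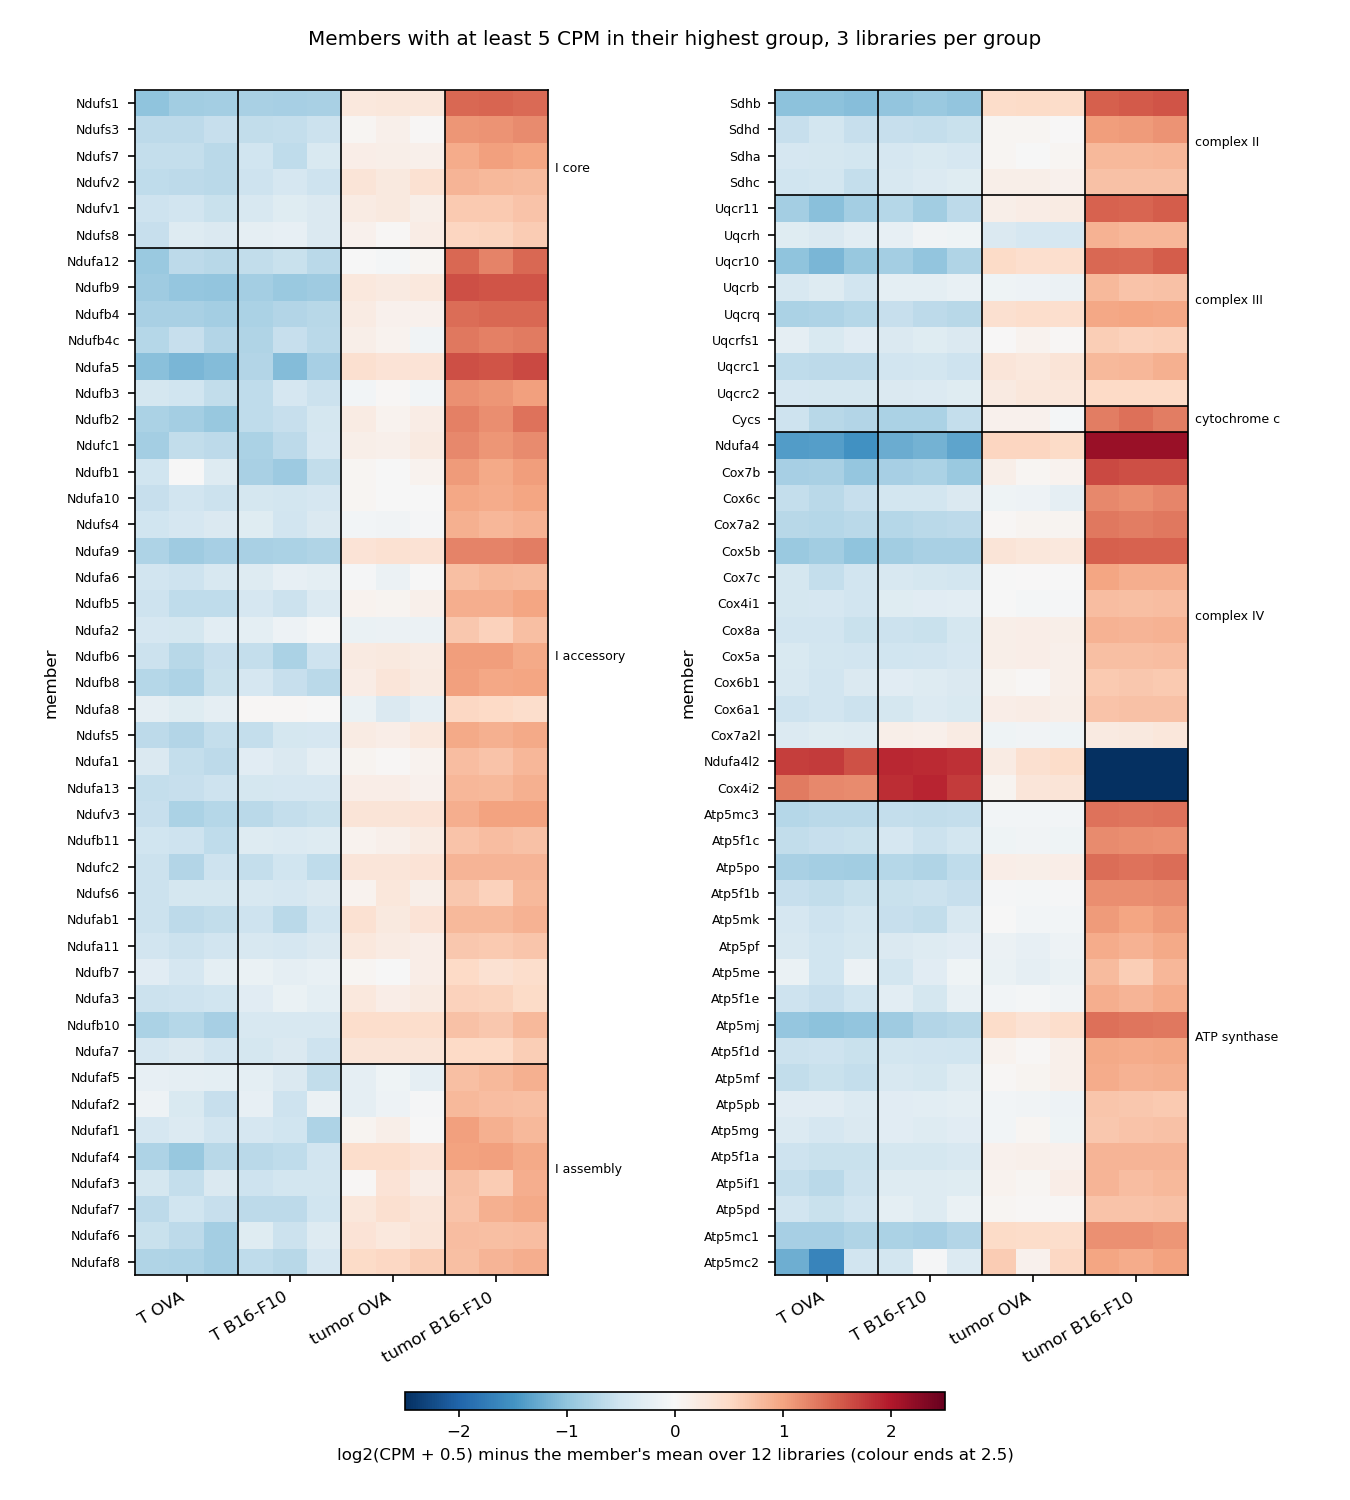
Each row is 1 of 90 members with at least 5 CPM in their highest group, each column 1 of the 12 libraries, and colour is log2(CPM + 0.5) minus the member's mean over the libraries. Most rows run from blue in the T libraries to red in tumor B16-F10 libraries, while Ndufa4l2 and Cox4i2 run the other way.

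Since the members moved together, their promoters were read for motifs of 3 factors known to act on respiratory chain genes. RefSeq windows of build GRCm38.p6 covering 250 bases before and 50 after the start were matched to 80 member symbols. Letters searched on both strands were GCGC, any base and TGCGC for NRF1, CCGGAAGT for GABPA, also called NRF2, and AANATGGC for YY1. The NRF1 letters were in the windows of 20 of 80 members (25%), against 5.19% of 27025 genes. The YY1 letters were in the windows of 25% of members, against 6.96% of all genes. Most members with the YY1 letters, Atp5f1b, Cox7b and Ndufs7 among them, had them only where the match reached into the 50 bases after the start. Some NRF1 matches, as in Uqcrc1, also lay there. The shares of all genes were not split in this way, nor limited to genes expressed in these libraries, as most members were. A contrast with expressed genes alone was not made. The GABPA letters were in 6.25% of members and 4.31% of all genes. ATP synthase genes carried the NRF1 letters in 7 of 15 promoters and complex IV genes in 1 of 14. A match is a run of letters and not a measured binding site.

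Shown are 250 bases before a RefSeq start of each of 6 members, with Cox6a1 and Ndufa4 both from complex IV. They were picked for a match to NRF1 or GABPA, except Ndufa4, whose levels differed most among the 4 groups of any of these 6 and whose window had none. Capitals mark the matches, and each sequence reads 5′ to 3′ on the gene's strand, which is the minus strand for all 6. The windows are chr6:24527527-24527776 for Ndufa5, chr13:74350241-74350490 for Sdha, chr10:80406822-80407071 for Uqcr11, chr5:115348959-115349208 for Cox6a1, chr2:10080433-10080682 for Atp5f1c and chr6:11907451-11907700 for Ndufa4.
Ndufa5: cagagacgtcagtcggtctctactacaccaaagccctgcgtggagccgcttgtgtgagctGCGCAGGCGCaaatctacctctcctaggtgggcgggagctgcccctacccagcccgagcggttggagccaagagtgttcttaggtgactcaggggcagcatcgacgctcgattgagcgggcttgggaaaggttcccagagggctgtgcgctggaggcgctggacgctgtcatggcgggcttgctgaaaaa
Sdha: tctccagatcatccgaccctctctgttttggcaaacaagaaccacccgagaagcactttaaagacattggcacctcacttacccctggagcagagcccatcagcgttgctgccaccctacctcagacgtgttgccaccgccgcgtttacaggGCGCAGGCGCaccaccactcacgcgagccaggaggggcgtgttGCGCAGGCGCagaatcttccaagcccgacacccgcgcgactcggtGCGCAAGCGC
Uqcr11: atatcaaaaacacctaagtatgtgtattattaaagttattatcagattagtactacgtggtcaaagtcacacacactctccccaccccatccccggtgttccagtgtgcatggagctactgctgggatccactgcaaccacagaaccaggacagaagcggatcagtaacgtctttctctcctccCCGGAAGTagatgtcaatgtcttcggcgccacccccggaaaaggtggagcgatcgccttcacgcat
Cox6a1: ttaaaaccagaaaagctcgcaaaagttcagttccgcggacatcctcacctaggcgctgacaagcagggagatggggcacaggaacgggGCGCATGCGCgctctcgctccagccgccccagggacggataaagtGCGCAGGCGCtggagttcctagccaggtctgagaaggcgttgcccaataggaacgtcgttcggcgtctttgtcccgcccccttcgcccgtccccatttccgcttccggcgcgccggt
Atp5f1c: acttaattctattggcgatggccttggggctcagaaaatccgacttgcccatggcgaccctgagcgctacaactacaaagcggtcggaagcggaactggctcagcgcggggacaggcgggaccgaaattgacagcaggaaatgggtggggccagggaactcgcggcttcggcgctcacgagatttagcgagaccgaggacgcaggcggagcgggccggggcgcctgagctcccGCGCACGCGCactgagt
Ndufa4: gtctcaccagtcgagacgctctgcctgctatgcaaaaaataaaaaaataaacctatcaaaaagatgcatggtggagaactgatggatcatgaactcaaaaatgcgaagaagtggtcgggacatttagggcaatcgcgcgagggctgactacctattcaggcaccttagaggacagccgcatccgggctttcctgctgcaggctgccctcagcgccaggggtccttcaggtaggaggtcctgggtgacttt

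Sdha, the flavoprotein of complex II, carried the NRF1 letters 3 times, at 98, 55 and 10 bases before the start. Cox6a1, a subunit of complex IV, carried them at 162 and 117 bases before the start. Ndufa5, an accessory subunit of complex I, carried them at 190 bases, and Atp5f1c, the gamma subunit of ATP synthase, at 17 bases. Ndufa5 and Atp5f1c each have another RefSeq start further upstream, so part of each printed stretch lies after that other start. In the window of the other start Ndufa5 also had the NRF1 letters. Atp5f1c had none there, as its match lies after that start. Uqcr11, a small subunit of complex III, carried the GABPA letters at 66 bases. Sdha had 115, 113 and 112 CPM in T OVA, 115, 118 and 115 CPM in T B16-F10, 159, 153 and 159 CPM in tumor OVA, and 270, 271 and 275 CPM in tumor B16-F10 libraries. Its T groups lay close together and below both tumor groups.

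Within the sorted melanoma cells, the comparison of B16-F10-OVA with B16-F10 tumors asks how the members stood where the T cells could recognise their antigen. Of 93 members tested, 88 were lower in tumor OVA libraries, 3 were higher and 2 were not called, at an adjusted p under 0.05 in edgeR's quasi-likelihood test with TMM scaling and Benjamini-Hochberg adjustment over 17418 genes, and with libraries scaled to melanoma markers 83 were instead higher and 4 lower. Over all genes tested 37.4% were lower and 42% higher. The members' median log2 fold change was -0.63, against 0.04 for all genes, a gap of -0.67 between the medians. Scaling to the 12 melanoma markers, by the median of their ratios, adds 1.18 to each log2 fold change and puts the members' median at 0.55. Relative to these markers the members were thus higher in tumor OVA libraries, and relative to the library as a whole lower. The markers did not move together under TMM, with 11 lower, 1 higher and log2 fold changes from -2.09 to 0.66. This scaling therefore rests on the middle of a wide range. A fall of more than 2-fold was called for 16 members, against 4.58% of all genes, and a rise of that size for 3, against 22.2% of all genes. On the CPM scale the ratio of tumor OVA to tumor B16-F10 had a median of 0.575 over the 91 members, with an interquartile range of 0.476 to 0.67.

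All 7 core subunits of complex I fell under TMM and stood above zero under the melanoma scaling where their values are given. Ndufs1, the large iron-sulfur subunit, had 111, 112 and 112 CPM in tumor OVA libraries, against 246 to 253 CPM in tumor B16-F10 libraries, a log2 fold change of -0.99 (SE 0.02, adjusted p = 3.25e-22). The groups were far apart, and relative to the melanoma markers the same difference was 0.19. Ndufv1, which binds NADH, changed by -0.31 (SE 0.029, adjusted p = 7.42e-10). Of 31 accessory subunits tested 30 fell under TMM, by up to -1.21 for Ndufa12, which read -0.025 and was not called under the melanoma scaling. Ndufb9 had 64.2, 63.0 and 64.8 CPM in tumor OVA libraries, against 165, 159 and 161 CPM in tumor B16-F10 libraries. The members not called were Ndufa7, at -0.05, and the assembly factor Ndufaf8, at -0.16, and 7 of 8 assembly factors fell under TMM. With library totals alone both were called lower, Ndufa7 at -0.22 and Ndufaf8 at -0.33, as was Ndufaf8 without tumor B16-F10 replicate 1 (adjusted p = 0.031).

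Complex II fell in all 4 of its members under TMM, and Sdha, Sdhb and Sdhc stood above zero under the melanoma scaling. Sdhb, the iron-sulfur subunit, had 140, 142 and 140 CPM in tumor OVA libraries, against 286, 295 and 302 CPM in tumor B16-F10 libraries (log2 fold change -0.90, SE 0.021, adjusted p = 3.83e-21). Sdhc, which anchors the complex in the membrane, changed by -0.43. In complex III all 8 members fell under TMM and the spread was wide. Uqcr11 had 39.1, 39.9 and 40.4 CPM in tumor OVA libraries, against 99.2, 96.8 and 101 CPM in tumor B16-F10 libraries (-1.15, SE 0.032), and under the melanoma scaling read 0.033. Uqcrc2, a core protein of the complex, changed by only -0.07 (adjusted p = 0.00587) and was not called without tumor OVA replicate 1 (adjusted p = 0.111), under median-ratio scaling (0.133) or by DESeq2 (0.125). Cycs, cytochrome c, had 47.6, 47.7 and 42.7 CPM in tumor OVA libraries, against 108, 116 and 108 CPM in tumor B16-F10 libraries (-1.10, SE 0.039, adjusted p = 1.66e-17), and stood at 0.085 under the melanoma scaling.

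In complex IV 13 of 16 members tested fell and 3 rose under TMM, and all 3 that rose are minor isoforms or paralogs. Ndufa4 had 103, 102 and 99.2 CPM in tumor OVA libraries, against 319, 315 and 316 CPM in tumor B16-F10 libraries (-1.47, SE 0.02, adjusted p = 7.77e-26). Cox7b, a small subunit, had 81.3, 76.4 and 78.4 CPM in tumor OVA libraries, against 232, 225 and 227 CPM in tumor B16-F10 libraries (-1.36, SE 0.024). Both were lower under every scaling run, at -0.29 for Ndufa4 and -0.18 for Cox7b relative to the melanoma markers. Cox7a1, the muscle isoform of its subunit, was low throughout and fell under every scaling run, with 0.421, 0.533 and 0.845 CPM in tumor OVA libraries, against 2.87, 2.37 and 3.01 CPM in tumor B16-F10 libraries (-2.04, SE 0.251, and -0.86 relative to the melanoma markers). Cox4i1 changed by -0.63 under TMM and by 0.55 relative to the melanoma markers.

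All 18 ATP synthase members tested fell under TMM, and among those followed under the melanoma scaling Atp5mc3 alone was still lower, at -0.059. Atp5f1b had 956, 948 and 951 CPM in tumor OVA libraries, against 2196, 2194 and 2211 CPM in tumor B16-F10 libraries (-1.04, SE 0.012, adjusted p = 1.03e-26), and 0.14 relative to the melanoma markers. Atp5f1a, the alpha subunit, changed less, by -0.57 (SE 0.013). Mature c-ring protein is the same from Atp5mc1, Atp5mc2 and Atp5mc3, and of their summed counts Atp5mc3 took 64.1% in tumor OVA and 74.9% in tumor B16-F10 libraries, while Atp5mc1 took 33.5% and 23.5%. These shares do not depend on the scaling and no library overlapped. Atp5if1, the inhibitor that blocks ATP hydrolysis, had 45.5, 43.9 and 47.6 CPM in tumor OVA libraries, against 77.3, 73.3 and 75.3 CPM in tumor B16-F10 libraries (-0.55, SE 0.036).

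**Figure D3:**
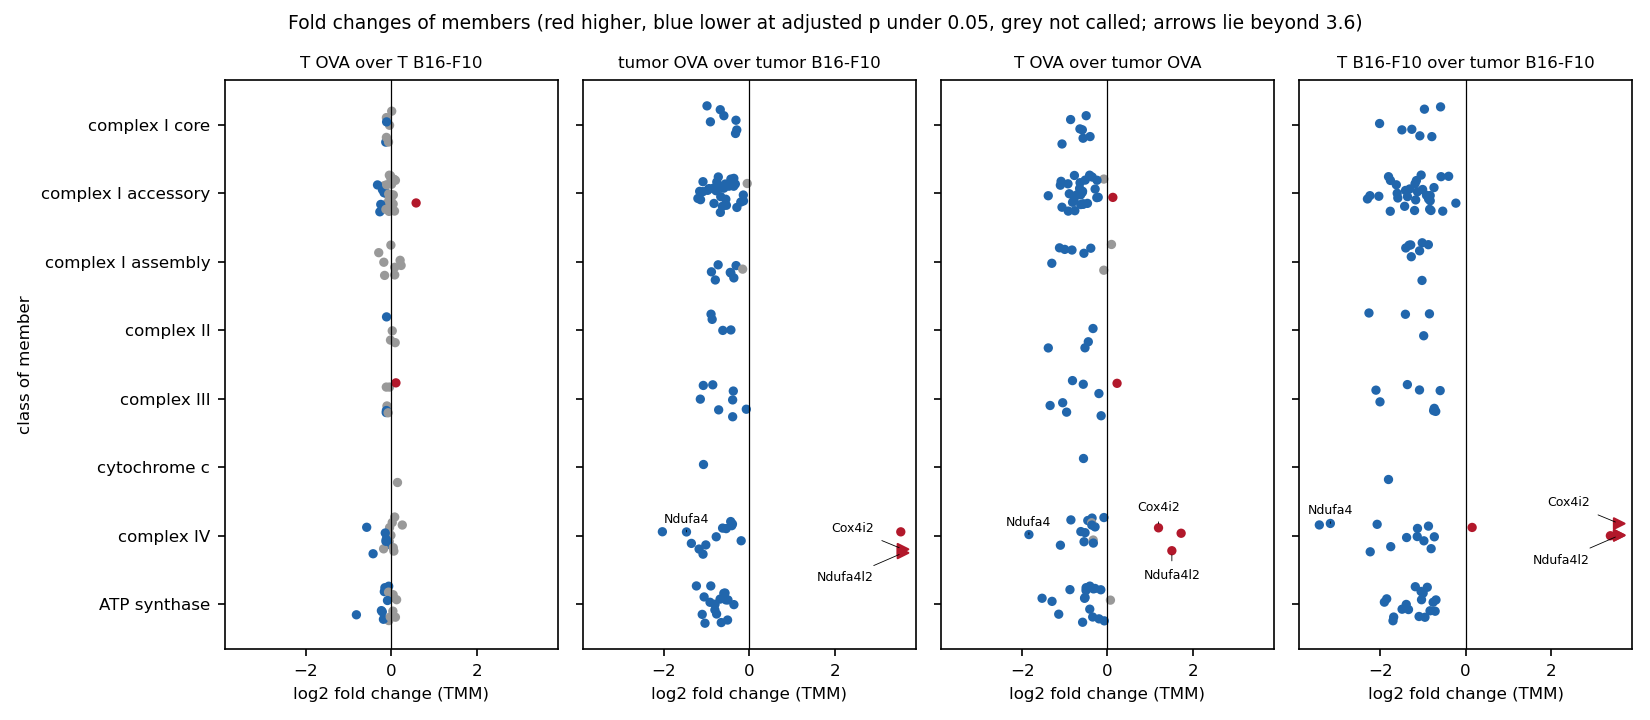
Log2 fold change (x axis, TMM scaling) of each member tested, by class, in 4 comparisons; red was called higher, blue lower, grey not called, and arrows lie beyond the axis. Members lie close to zero for T OVA over T B16-F10 and mostly below it in the other panels; scaling to melanoma markers moves the tumor OVA panel up by 1.18, so that most of its members lie above zero.

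Between the CD8 bead fractions, T OVA against T B16-F10, differences were small. Of 93 members tested, 27 were lower in T OVA, 2 were higher and 64 were not called, against 22.4% lower and 23.7% higher over 16536 genes, and scaled to the median ratio of the 15 T cell markers 71 were lower and 1 higher. These markers did not move together, with 8 higher and 3 lower in T OVA, and scaled to their summed CPM 28 members were lower and 2 higher. The lower count was 14 by DESeq2 and 42 with library totals alone. Without T B16-F10 replicate 3 the lower count was 17 and the higher count 4, and without T OVA replicate 3 the higher count was 4. The median was -0.06, against -0.01 for all genes, and edgeR's glmTreat called 0 members beyond 2-fold, also at an unadjusted p under 0.05. After adjustment it called 296 of 16536 genes higher and 154 lower, so changes of that size were rare over all genes too. None of the 8 assembly factors of complex I had an unadjusted p under 0.05, and neither Sdha, Sdhb nor Sdhd was called, with TMM values for Sdha of 0.02 and for Ndufs1 of -0.04.

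The largest called change among T libraries was that of Atp5mc2, with 1.73, 1.16 and 3.22 CPM in T OVA libraries, against 3.32, 4.63 and 3.61 CPM in T B16-F10 libraries (-0.82, SE 0.234, adjusted p = 0.00528, and 0.144 by DESeq2). The T OVA libraries spread widely and lay below the others without overlap. Cox7a2l, counted here with complex IV, had 68.2, 69.8 and 69.0 CPM in T OVA libraries, against 95.1, 94.5 and 99.6 CPM in T B16-F10 libraries (-0.43, SE 0.031, adjusted p = 5.12e-12). Ndufb10, an accessory subunit of complex I, had 19.5, 20.6 and 19.0 CPM in T OVA libraries, against 25.5, 25.6 and 25.6 CPM in T B16-F10 libraries (-0.32, SE 0.056). Both differences were well beyond the spread of their groups and kept their direction under the T cell marker scaling.

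Ndufb1, another accessory subunit, went against most members, with 7.71, 11.0 and 8.82 CPM in T OVA libraries, against 6.17, 5.71 and 7.03 CPM in T B16-F10 libraries (0.58, SE 0.121, adjusted p = 0.000258). Its groups did not overlap, and it was 0.42 under the T cell marker scaling. Uqcrfs1, the Rieske iron-sulfur protein of complex III, was called at 0.11 (adjusted p = 0.0274), yet read -0.057 under the median T cell marker scaling and was not called by DESeq2, with library totals alone, or without either of T OVA replicates 1 and 3 or either of T B16-F10 replicates 1 and 3, where the adjusted p lay between 0.0655 and 0.297. Atp5if1 fell by 0.23 and Cox4i1 by 0.11 on the log2 scale.

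The difference between the OVA effects, that in T libraries minus that in tumor libraries, was tested for each member in 1 fit over the 12 libraries. It was above zero for 80 of 94 members tested, below zero for 6 and not called for 8, against 27.7% above and 41.3% below over 18562 genes, and with each fraction scaled to its own markers it was above zero for 1 and below zero for 86. The median was 0.56 under TMM, against -0.16 for all genes, and -0.78 under the marker scalings. Beyond 2-fold, 9 were above zero, against 3.4% of genes, and 3 below, against 23.4% of genes. Cycs at 1.24 (SE 0.083), Ndufa4 at 1.33 (SE 0.053) and Cox7b at 1.38 (SE 0.053) were among those above zero under TMM, but read -0.11, -0.016 and 0.033 and were not called under the marker scalings. Called below zero under both were Ndufa4l2, Cox6a2, Cox7a2l, Ndufb10, Cox4i2 and Cox6b2. The sizes for Cox4i2 and Cox6b2 are not given, as they had 2 and 3 counts over the tumor B16-F10 libraries. Ndufb10 was not called by DESeq2, under median-ratio scaling, with library totals alone or without T OVA replicate 1 or T OVA replicate 3, with adjusted p of 0.0556 to 0.337.

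In each kind of tumor the T fraction was set against the melanoma cells. In B16-F10-OVA tumors 83 of 94 members were lower in T OVA than in tumor OVA libraries, 5 were higher and 6 not called, against 40.2% lower and 37.3% higher over all genes, with a median of -0.55, against -0.03 for all genes. Beyond 2-fold 13 were lower, against 12.5% of genes, and 2 higher, against 10.7%. In B16-F10 tumors 89 of 94 members were lower in T B16-F10 than in tumor B16-F10 libraries and 5 were higher, against 40.4% lower and 45.5% higher over all genes, with a median of -1.11, against 0.12 for all genes. Beyond 2-fold 50 were lower, against 17.6% of genes, and 4 higher, against 29.3%. Whether this is a difference between T cells and melanoma cells was not tested, as the T libraries also held endothelial and mural marker RNA at the levels given.

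Ndufa4 had 26.5, 26.7 and 24.5 CPM in T OVA, 29.8, 30.8 and 28.1 CPM in T B16-F10, 103, 102 and 99.2 CPM in tumor OVA and 319, 315 and 316 CPM in tumor B16-F10 libraries. Its log2 fold change was -1.84 (SE 0.034) for T OVA against tumor OVA and -3.17 (SE 0.03) for T B16-F10 against tumor B16-F10, the lowest value of any member in the first. Sdhb stood at 49.8, 49.4 and 47.8 CPM in T OVA and 50.8, 53.3 and 50.7 CPM in T B16-F10 libraries, and changed by -1.39 and -2.26 against tumor OVA and tumor B16-F10 in that order, while Sdha changed by -0.34 and -0.98. The subunits of complex II thus differed unequally between the fractions. Ndufs1 changed by -1.07 and -2.02, Ndufa5 by -1.39 and -2.30, and Atp5f1b by -0.41 and -1.49 in the same comparisons.

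The members that were higher in T OVA than in tumor OVA libraries were Uqcrh, Ndufa8, Cox4i2, Ndufa4l2 and Cox6b2. Uqcrh, the hinge protein of complex III, had 58.3, 55.5 and 59.5 CPM in T OVA libraries, against 55.6, 53.1 and 53.7 CPM in tumor OVA libraries (0.22, SE 0.036, adjusted p = 3.30e-06), ranges that overlap slightly on the CPM scale. Ndufa8, an accessory subunit of complex I, was called at 0.13 (adjusted p = 0.0104) but read -0.0059 with library totals alone and was not called without the filter on low counts, without T OVA replicate 1, T OVA replicate 3 or tumor OVA replicate 2 (adjusted p = 0.412, 0.0505, 0.063 and 0.0812). Cox7a2l was close to level across the fractions, at -0.08 for T OVA against tumor OVA, which turned to 0.024 under median-ratio scaling and to 0.013 by DESeq2, and at 0.15 for T B16-F10 against tumor B16-F10, which turned to -0.093 with library totals alone.

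The isoform pairs of complex IV showed the widest contrasts, and their shares within a library do not depend on scaling. Ndufa4l2, a paralog of Ndufa4 known as a target of the hypoxia factor HIF and as a gene of pericytes, had 39.1, 39.4 and 35.3 CPM in T OVA, 43.4, 42.7 and 41.8 CPM in T B16-F10, 13.2, 15.1 and 15.9 CPM in tumor OVA, and 0.517, 0.302 and 0.106 CPM in tumor B16-F10 libraries. Of the counts of Ndufa4 and Ndufa4l2 together it took 59.4% ± 0.297 in T OVA, 59.0% ± 0.903 in T B16-F10, 12.7% ± 1.23 in tumor OVA and 0.0969% ± 0.0642 in tumor B16-F10 libraries (SD, n = 3 each). In this share the T groups overlapped and every other pair of groups stood apart. It was 5.68 higher on the log2 scale (SE 0.191, adjusted p = 5.50e-18) in tumor OVA than in tumor B16-F10 libraries, under TMM, and 1.51 (SE 0.066) higher in T OVA than in tumor OVA libraries. Between T OVA and T B16-F10 it was called at -0.12 (adjusted p = 0.0468), a call lost without the filter, by DESeq2, under median-ratio scaling, in the fit over 12 libraries and without T OVA replicate 3 or any 1 of the T B16-F10 replicates.

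Cox4i2, the isoform of Cox4i1 known from lung and from hypoxic cells, had 12.2, 11.3 and 11.2 CPM in T OVA, 16.9 to 18.8 CPM in T B16-F10 and 4.93, 5.87 and 5.99 CPM in tumor OVA libraries, and 2 counts over the 3 tumor B16-F10 libraries. It took 6.68% of Cox4i1 and Cox4i2 counts in T OVA, 9.02% in T B16-F10, 2.53% in tumor OVA and 0.00854% in tumor B16-F10 libraries, and no groups overlapped. The count ratio of tumor OVA to tumor B16-F10 was 175 (exact 95% interval 48.0 to 1446, for counting error only), and that of T B16-F10 to tumor B16-F10 was 569 (157 to 4707). Cox4i2 was lower in T OVA than in T B16-F10 libraries (-0.58, SE 0.072, adjusted p = 1.85e-07) and also under the T cell marker scaling.

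In sum, pericyte and mural cell markers had the same order of groups as both genes, with 12 markers summing to 4302 CPM in T OVA, 4894 CPM in T B16-F10, 1721 CPM in tumor OVA and 84.6 CPM in tumor B16-F10 libraries. Higd1b, one of them, had 4.42 to 5.26 CPM in T OVA, 6.13 to 7.05 CPM in T B16-F10, 2.01 CPM in tumor OVA and 0 counts in tumor B16-F10 libraries, and Kcnj8 was also at 0 there. The list did not move as one between the T groups, where 7 of its markers were lower and 3 higher in T OVA: Myh11 averaged 148 CPM in T OVA and 116 CPM in T B16-F10 libraries, and Acta2 and Tagln were higher in T OVA as well. Fibroblast markers had the same order in sum, with 4689 CPM in T OVA, 5108 CPM in T B16-F10, 2005 CPM in tumor OVA and 108 CPM in tumor B16-F10 libraries. The endothelial and the T cell markers given above also had this order in sum. The part of these cells in the isoform levels was not tested.

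Cox6a2, the heart and muscle isoform of Cox6a1, took 2.78% of the pair in T OVA, 3.00% in T B16-F10, 2.41% in tumor OVA and 0.156% in tumor B16-F10 libraries. It had 4.39, 3.63 and 3.34 CPM in tumor OVA libraries, against 0.564, 0.388 and 0.106 CPM in tumor B16-F10 libraries (3.55, SE 0.28, adjusted p = 5.82e-11). The first 3 groups overlapped. The 11 skeletal muscle markers summed to 7.57 CPM in T OVA, 13.3 CPM in T B16-F10, 6.47 CPM in tumor OVA and 7.02 CPM in tumor B16-F10 libraries, where Ttn alone gave 5.30 CPM and Myh1, Myh4 and Tnnt3 had 0 counts. Without Ttn they summed to 6.30 CPM in T OVA, 10.7 CPM in T B16-F10, 3.68 CPM in tumor OVA and 1.72 CPM in tumor B16-F10 libraries, and the part of muscle RNA in the Cox6a2 levels was not tested. Cox6b2, the testis isoform, had 57 counts in T OVA, 40 in T B16-F10, 22 in tumor OVA and 3 in tumor B16-F10 libraries in all, and a count ratio of 6.05 (1.82 to 31.6) for tumor OVA to tumor B16-F10. Cox7b2 and Cox8b, also tissue isoforms, had at most 4 counts in any group.

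Cox7a2l took 60.9% of the counts of Cox7a1, Cox7a2 and Cox7a2l in T OVA, 68.4% in T B16-F10, 51.6% in tumor OVA and 36.3% in tumor B16-F10 libraries. No groups overlapped, so its weight against Cox7a2, the widely used isoform, was lower in T OVA than in T B16-F10 and higher in tumor OVA than in tumor B16-F10 libraries. Cox7a2 had 73.2, 74.8 and 75.2 CPM in tumor OVA libraries, against 179, 174 and 179 CPM in tumor B16-F10 libraries, and 43.4 to 44.9 CPM across all 6 T libraries.

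**Figure D4:**
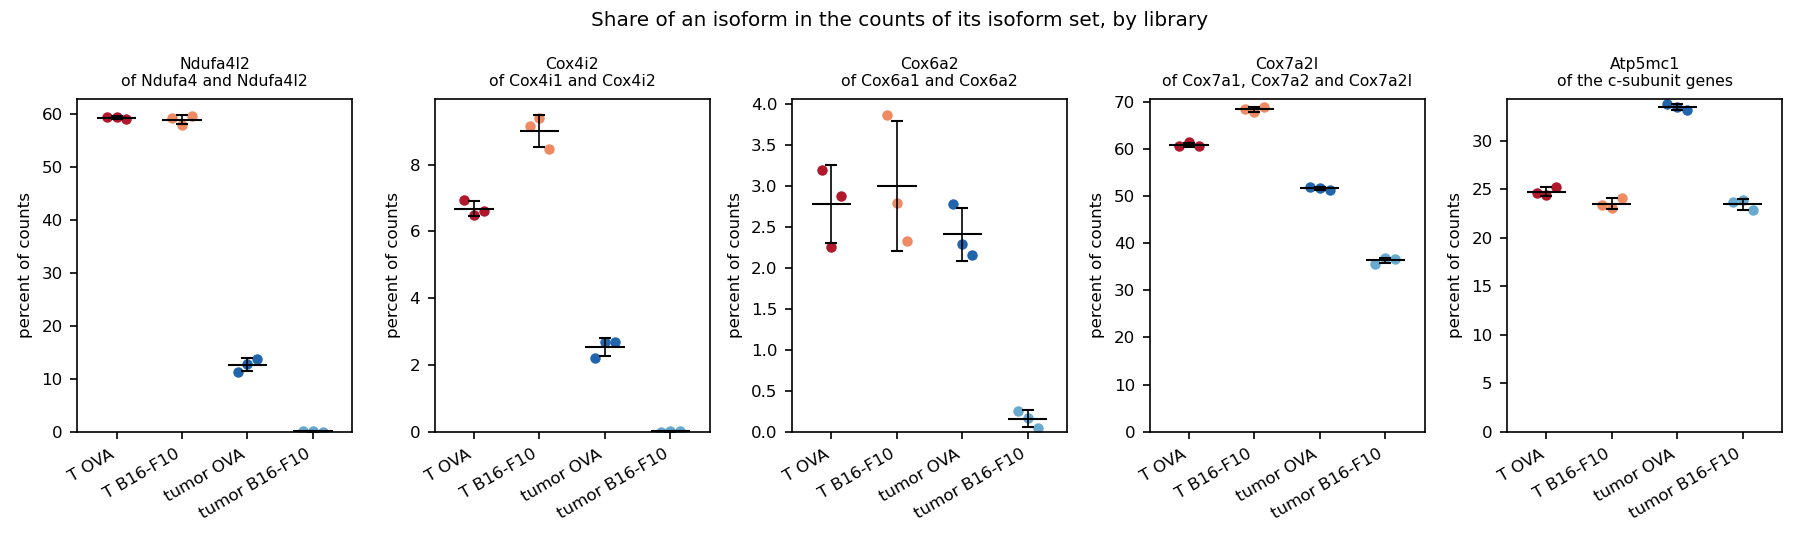
Percent of an isoform set's counts (y axis, from 0) that fell on 1 isoform, in the 3 libraries of each group; the bar is the mean and the whisker 1 SD. Ndufa4l2 takes 59.4% of its pair in T OVA and 0.0969% in tumor B16-F10 libraries, and Cox7a2l and Atp5mc1 separate tumor OVA from tumor B16-F10 libraries.

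The subunits encoded in mitochondrial DNA join the members in complexes I, III, IV and ATP synthase. They moved against most members where tumor B16-F10 libraries were compared, and in the direction of the members' median in the other comparisons. The 13 genes took 2.62% ± 0.014 of library counts in T OVA, 3.01% ± 0.0772 in T B16-F10, 5.95% ± 0.0696 in tumor OVA and 1.67% ± 0.0394 in tumor B16-F10 libraries (SD, n = 3 each). All 13 were higher in tumor OVA than in tumor B16-F10 libraries, against 42% of all genes, with a median log2 fold change of 1.77. Of the nuclear members 88 were lower under TMM. Of the counts on both kinds of subunit, the nuclear members made up 14.6% in T OVA, 13.8% in T B16-F10, 10.7% in tumor OVA and 44.8% in tumor B16-F10 libraries, a share that does not depend on the scaling. In the T comparison 10 of 12 mitochondrially encoded genes tested were lower in T OVA and 1 was higher, beside 27 of 93 members lower and 2 higher. Over all genes 22.4% were lower and 23.7% higher there. In T B16-F10 against tumor B16-F10 all 13 were higher, against 45.5% of all genes, while 89 of 94 members were lower. In T OVA against tumor OVA all 13 were lower, against 40.2% of all genes, as were 83 of 94 members. The ribosomal RNA row Rn18s-rs5, which polyA selection should leave behind, took 0.316% of counts in T OVA, 1.05% in T B16-F10, 1.21% in tumor OVA and 0.559% in tumor B16-F10 libraries, and its part in these shares was not tested.

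**Figure D5:**
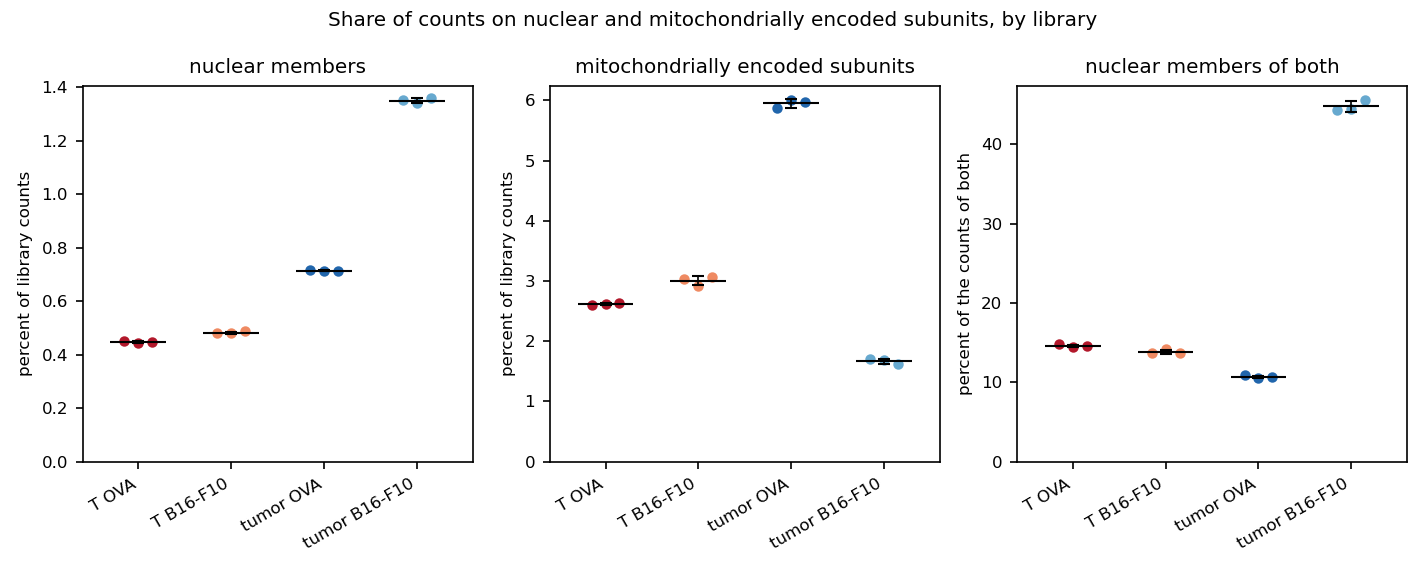
Percent of library counts on the 103 nuclear rows (left) and on the 13 mitochondrially encoded subunits (middle), and nuclear rows as a percent of both (right), in the 3 libraries of each group, with the mean and 1 SD. Tumor B16-F10 libraries are highest for nuclear rows at 1.35% and lowest for mitochondrially encoded subunits at 1.67%; tumor OVA libraries hold 0.714% and 5.95%.

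Nuclear genes that work beside the chain mostly went with the members. All 17 genes of the tricarboxylic acid cycle, which supplies NADH and succinate, were lower in tumor OVA than in tumor B16-F10 libraries under TMM (median -0.58), and their summed CPM was 0.547 times as high, beside 0.528 times for the members and 0.426 times for the melanoma markers. Of 43 assembly factors outside the rule 32 were lower and 5 higher in tumor OVA libraries under TMM. Of 18 carriers and partners 12 were lower and 3 higher, among the lower ones Cyc1, the cytochrome c1 of complex III, at -1.11. Over all genes tested in this comparison 37.4% were lower and 42% higher. In T OVA against T B16-F10 libraries 2 tricarboxylic acid cycle genes were higher and 2 lower of 17. There 6 assembly factors were higher and 4 lower of 42, with Cox17, a copper carrier for complex IV, at 0.64. Among all genes 23.7% were higher and 22.4% lower, so both lists held a smaller share of calls in each direction.

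Of the 11 regulators of mitochondrial biogenesis, 8 were lower and 1 higher in tumor OVA than in tumor B16-F10 libraries under TMM, against 3 lower and 4 higher in T OVA than in T B16-F10 libraries. The shares over all genes were 37.4% lower and 42% higher between tumor groups, and 22.4% lower and 23.7% higher between T groups. Ppargc1a had 1.19 to 1.74 CPM in T OVA and 3.52 to 4.45 CPM in T B16-F10 libraries, and averaged 339 CPM in tumor OVA and 644 CPM in tumor B16-F10 libraries. It changed by -0.76 (SE 0.019, adjusted p = 2.15e-20) in tumor OVA, which lies between the members' -0.63 and the melanoma markers' median of -1.18 on the TMM scale. Gabpb1, a partner of GABPA, went the other way at 0.69. Nrf1 averaged 34.4 CPM in T OVA, 39.8 CPM in T B16-F10, 44.0 CPM in tumor OVA and 49.9 CPM in tumor B16-F10 libraries, a narrower span than that of the members' sum.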

How the data were processed

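The authors deposited raw gene counts from 12 polyA libraries (4 groups of 3), as whole-number counts per gene with no normalization. HISAT2 2.0.5, featureCounts 1.6.0 and build GRCm39 are named in the submitters' processing notes, while strand and multi-mapping settings are not given in the sources used here. The members and lists were chosen with earlier results of these data known. CPM was the count over the library total. Each comparison was fitted over all genes kept by filterByExpr with edgeR 4.0.16 (R 4.3.3; TMM, quasi-likelihood test, Benjamini-Hochberg adjustment, threshold 0.05; glmTreat for changes beyond 2-fold). Comparisons within a fraction used its 6 libraries and the others all 12, with no replicate block. Alternatives used limma 3.58.1, DESeq2 1.42.0, other scalings and filters, and leaving out each library. The steps were tested on simulated data. Transcript lengths came from GENCODE M21, which gives one for 102 of 103 rows. Named were core subunits, isoform sets, the most changed members of each complex, members beyond 2-fold and members against the direction of their complex, and of other lists up to 4 genes with the smallest adjusted p. Exceptions, named after their values were seen, are members that were not called and single regulators and markers. Replicates differed by more than sampling noise, with a chi-square per degree of freedom of 1.51 to 1.77 between libraries of a group. The pseudogene rows left out averaged at most 5.56 CPM in any group, and reads shared with such copies may be split between rows. Promoters were matched for 80 of the 102 member symbols, not for Cox4i1, Cox4i2 and Ndufa4l2 among others. Values of 1 member and of 1 other gene are not reported here, though both are in the counts and sums.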

Additional observations from a re-analysis of the deposited data

Results flagged for a closer look

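The OVA effect, which is B16-F10-OVA against B16-F10 tumors, differed between the T fraction and the sorted melanoma cells by the test of the difference in edgeR's quasi-likelihood fit over 12 libraries. Under TMM it was higher in the T fraction for 80 members and lower for 6, which turned with the marker scalings. Among the named members, the difference in log2 fold change (T libraries minus tumor libraries) was 3.06 for Cox7a1, 1.41 for Ndufb1, 1.38 for Cox7b, 1.33 for Ndufa4, 1.24 for Cycs and 1.08 for Atp5f1b. Cox7a1 rests on 27 counts in T OVA and 11 counts in T B16-F10 libraries and was not tested in the T comparison alone. With each fraction scaled to its own markers Cox7a1 read 1.72, and Ndufb1 read 0.061 and was not called (adjusted p = 0.678). Under TMM the difference was -5.79 for Ndufa4l2, -3.73 for Cox6a2, -0.24 for Cox7a2l and -0.19 for Ndufb10, and also below zero for Cox4i2 and Cox6b2, whose sizes rest on 2 and 3 counts in tumor B16-F10 libraries and are not given. Groups of 3 libraries are too small for the check on single outlying libraries, so none was made.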

How the results depend on the processing

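Scaling the tumor libraries to melanoma markers turned the OVA effect in tumor cells to 83 members higher and 4 lower, with a median log2 fold change of 0.55 and Ndufb9 0.017, Uqcr11 0.033, Atp5f1c 0.077, Cycs 0.085, Ndufa5 0.10, Uqcrh 0.10, Atp5f1b 0.14, Ndufs1 0.19, Sdhb 0.28, Cox4i1 0.55, Sdha 0.56, Atp5f1a 0.61, Atp5if1 0.63, Atp5mc1 0.68, Sdhc 0.75, Cox6a1 0.79, Atp5mc2 0.82, Ndufv1 0.87, Cox7a2l 0.99, Ndufaf8 1.02, Ndufb10 1.04, Uqcrc2 1.11 and Ndufa7 1.13. Scaling each fraction to its own markers turned the difference between the OVA effects to 1 member above zero and 86 below, with a median of -0.78, Cycs -0.11, Ndufa4 -0.016 and Atp5f1b -0.27. Scaled to T cell markers, T OVA against T B16-F10 gave 1 higher and 71 lower, with Uqcrfs1 at -0.057 and Atp5f1b at -0.13, but scaled to their summed CPM, an alternative chosen after seeing the data, 2 and 28. That comparison gave 1 higher and 42 lower with library totals alone, 1 and 14 by DESeq2, and 5 higher both without a filter and in 1 fit over 12 libraries. For T OVA against tumor OVA, Cox7a2l read 0.024 under median-ratio scaling and 0.013 by DESeq2, and Ndufa8 -0.0059 with library totals alone, where Cox7a2l for T B16-F10 against tumor B16-F10 read -0.093. Requiring a change beyond 2-fold left 3 higher and 16 lower in tumor OVA against tumor B16-F10, 0 and 0 in T OVA against T B16-F10, 2 and 13 in T OVA against tumor OVA, 4 and 50 in T B16-F10 against tumor B16-F10, and 9 above and 3 below zero for the difference. Leaving out each library gave 3 higher and 87 to 89 lower, 2 to 4 higher and 17 to 24 lower, 4 to 5 higher and 82 to 83 lower, 5 higher and 89 lower, and 79 to 81 above and 5 to 6 below in the same order. Without mitochondrially encoded genes in the total, members summed to 4607 CPM in T OVA, 4990 in T B16-F10, 7632 in tumor OVA and 13747 in tumor B16-F10. The cause of these changes was not tested. Nothing in the labels says what a replicate number shares. Same-numbered libraries of different groups correlated in their deviations at -0.07 to 0.07, except T OVA with tumor OVA at 0.203 for number 1, -0.021 for number 2 and 0.157 for number 3, so no pair of groups passed 0.1 for all numbers, and 3 of 18 pairs were highest with their own number. A replicate block gave 5 higher and 83 lower for T OVA against tumor OVA, 3 and 88 in tumor OVA and 2 and 28 in T OVA, and changed no count of members by more than 1.5 times. Depth leaves Cox4i2 and Cox6b2 in tumor B16-F10 on 2 and 3 counts.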
